A study of Saccharomyces cerevisiae with 18 samples.

Results

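The 44 genes described here are budding yeast (Saccharomyces cerevisiae) genes for proteins that build ribosomes in the nucleolus. They were chosen by name: every feature of the deposited gene tables called UTP, NOP, NOC, NSA, RIX or RLP followed by a number, which gave 44 of 6596 features. By known role, 6 encode the UTP-A (t-UTP) complex, 4 the UTP-B complex, 13 other factors of the small subunit, 4 core proteins of small nucleolar ribonucleoproteins (snoRNPs) and 17 factors of the large subunit. All 44 had reads in every library, between 868 and 39187, and none was lost to a filter.

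Ribosome assembly starts while RNA polymerase I is still transcribing the ribosomal RNA precursor. UTP-A binds the first transcribed part of that precursor, UTP-B and the U3 snoRNP follow, and together with many single proteins they form the small-subunit processome. Other factors, among them Noc2, Noc3 and the Nsa and Rix proteins, join the large-subunit precursor and are removed step by step, often by ATPases such as Rix7. In yeast these genes are known as a regulon, called Ribi, whose mRNAs rise and fall together with nutrients and growth, and many of its promoters carry the PAC and RRPE motifs.

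Polyadenylated RNA was sequenced from 2 strains in which the GAL1 promoter, on in galactose and off in glucose, drives a gene of the splicing machinery. That gene is DIB1 (PGAL1-YPR082C), a tri-snRNP protein, in the Dib1 strain, and SNU114 (PGAL1-YKL173w), the GTPase of the U5 snRNP, in the Snu114 strain. The 18 libraries form 6 groups of 3, the same 3 cultures per strain: the control, held in YPGal (galactose medium) for 6 h, and cells held in YPD (glucose medium) for 4 h and for 8 h. The labels give both strains as BY4742, Mat alpha, with his3Δ1, leu2Δ0, met15Δ0 and ura3Δ0. They set the strains apart by the driven gene and by LYS2 in the Dib1 strain against lys2Δ0 in the Snu114 strain.

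The libraries held 17065989 to 58615022 gene reads, and every printed level is the authors' normalised count, the reads of a gene divided by a size factor of the library. DIB1 stood between 117804 and 127214 in the galactose libraries of its own strain and between 244 and 283 in the glucose libraries. SNU114 stood between 159504 and 186566 in galactose and between 1130.5 and 1501 in glucose in its strain. In the other strain, with its native promoter and in a table normalised on its own, DIB1 was between 971 and 1469.9 and SNU114 between 2428 and 3546. Depletion, the change of sugar and the end of overexpression therefore cannot be told apart in a comparison with galactose. Nor can the time in the medium, as the control was held for 6 h and the glucose cells for 4 h or 8 h. LYS2 matched its label, at 2973 to 3560.4 in the Dib1 strain and 0 to 2.84 in the Snu114 strain. The mating type did not. MFA2, the a-factor gene, was at 15389 to 27747 in all 9 Dib1 libraries and 14.97 to 51.0 in the Snu114 libraries. MF(ALPHA)1, the alpha-factor gene, was at 9.60 to 62.9 in the Dib1 strain and 71259 to 106892 in the Snu114 strain. The libraries labelled Dib1 thus carry the markers of mating type a and go against their label, so that the strains differ in mating type and in LYS2 as well as in the driven gene, and these cannot be told apart in a difference between strains.

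The promoters of the 44 genes hold the core letters of the PAC and RRPE motifs more often than promoters in general. In the 300 bases before the start codon, read on both strands from the RefSeq R64 genome, the PAC core (GATGAG or its reverse complement CTCATC) was found at 37 of 44 genes, 84.1%, against 1096 of 5894 promoters of the genome, 18.6%. The RRPE core (AAAATTTT, its own reverse complement) was found at 32 of 44, 72.7%, against 564 of 5894, 9.57%. Both cores stood at 27 of 44 genes, 61.4%, against 4.53% of all promoters, and the motifs were not searched with any mismatch. UTP22 and UTP30 had neither. The median distance to the start codon was 118 bases for 60 PAC cores and 133 bases for 39 RRPE cores. All 4 UTP-B and all 4 snoRNP genes carried a PAC core, as did 4 of 6 UTP-A genes. A match is a run of letters, not a shown binding site.

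The sequences below are shown because they belong to the genes that the results turn on: the 5 past the threshold in a comparison, the gene that followed the rest most closely in the Dib1 strain (NSA2), one that ran against it (NOP10) and one without either core (UTP30). Each runs 5′ to 3′ on the strand of its gene, from 190 to 75 bases before the start codon, in R64, with the PAC and RRPE cores that lie whole within it in capitals.
UTP20, plus strand, chrII:227446-227561: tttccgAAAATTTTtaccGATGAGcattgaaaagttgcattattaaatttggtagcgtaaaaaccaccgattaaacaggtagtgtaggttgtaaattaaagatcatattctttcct
UTP10, minus strand, chrX:217384-217499: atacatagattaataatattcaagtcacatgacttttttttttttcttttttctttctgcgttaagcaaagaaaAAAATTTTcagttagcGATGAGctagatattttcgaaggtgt
UTP11, minus strand, chrXI:256547-256662: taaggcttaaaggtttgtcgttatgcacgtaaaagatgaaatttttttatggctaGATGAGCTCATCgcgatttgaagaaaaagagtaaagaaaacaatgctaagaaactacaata
NOP6, minus strand, chrIV:78041-78156: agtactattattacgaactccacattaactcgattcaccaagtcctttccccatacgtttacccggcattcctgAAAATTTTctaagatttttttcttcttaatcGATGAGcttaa
RIX7, minus strand, chrXII:73221-73336: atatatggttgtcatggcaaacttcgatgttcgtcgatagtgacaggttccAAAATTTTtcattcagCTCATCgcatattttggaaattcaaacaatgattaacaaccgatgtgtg
NSA2, minus strand, chrV:414254-414369: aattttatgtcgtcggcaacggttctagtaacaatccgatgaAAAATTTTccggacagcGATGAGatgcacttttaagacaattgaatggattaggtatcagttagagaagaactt
NOP10, plus strand, chrVIII:241474-241589: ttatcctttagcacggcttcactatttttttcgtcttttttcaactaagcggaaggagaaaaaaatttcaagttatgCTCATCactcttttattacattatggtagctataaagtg
UTP30, plus strand, chrXI:556328-556443: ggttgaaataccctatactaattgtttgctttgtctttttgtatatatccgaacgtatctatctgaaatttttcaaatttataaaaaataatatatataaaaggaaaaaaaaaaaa
In UTP20, UTP10, NOP6, RIX7 and NSA2 the RRPE core lies upstream of a PAC core, while UTP11 has a PAC core on each strand back to back and no RRPE core.

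Although these proteins act together, their mRNAs covered a wide range of levels once divided by length. Per kilobase of coding sequence, the mean level over the 9 Dib1 libraries ran from 674 for UTP20, a very large HEAT-repeat protein of the processome, to 39524 for NOP10, the smallest H/ACA snoRNP core protein, a ratio of 58.7. In the Snu114 strain the same genes were lowest and highest, at 516 and 35522, a ratio of 68.8. The medians were 2967 and 2674. After NOP10 came NOP1 (fibrillarin, the methyltransferase of box C/D snoRNPs) at 16034 per kilobase in the Dib1 strain, NOP16 (an early large-subunit factor) at 15312 and RLP24 (later exchanged for ribosomal protein L24) at 13253. The lower end held RIX7 at 1127, the UTP-A subunit UTP10 at 1064 and UTP20. The order was nearly the same in both strains, since no gene moved by more than 5 of 44 places. The coding length ran from 177 bases for NOP10 to 7482 for UTP20, so the highest and lowest levels per kilobase belong to the shortest and longest genes. Not divided by length, their means in Dib1 galactose were closer, at 5999 for NOP10 and 3293 for UTP20. How far the order per kilobase follows length was not tested.

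The 44 genes differed widely between libraries of one group as well as between groups. The summed level was 266221, 234870 and 218132 in the 3 galactose libraries of the Dib1 strain, in the order of their replicate numbers. It was 317017, 264354 and 276906 after 4 h in glucose, then 257800, 257961 and 263764 after 8 h. In the Snu114 strain it was 262501, 207022 and 206253 in galactose, 282375, 259069 and 166510 after 4 h, then 244151, 231271 and 256760 after 8 h. The ranges of the 3 cultures overlapped in the Snu114 strain, and in the Dib1 strain only 4 h and 8 h did not overlap, by a small margin. The widest gap was inside the Snu114 4 h group, where replicate 3 was the lowest of the 3 libraries for 44 of 44 genes. Among 5347 genes with a mean of at least 100 reads in that group, 39.5% were lowest there. As a share of all gene reads, the 44 genes made up 0.746% of that library and 0.901% to 1.38% of the other 17. That library held 20863129 gene reads, between the 18834361 and 25393963 of the others in its group.

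**Figure D1:**
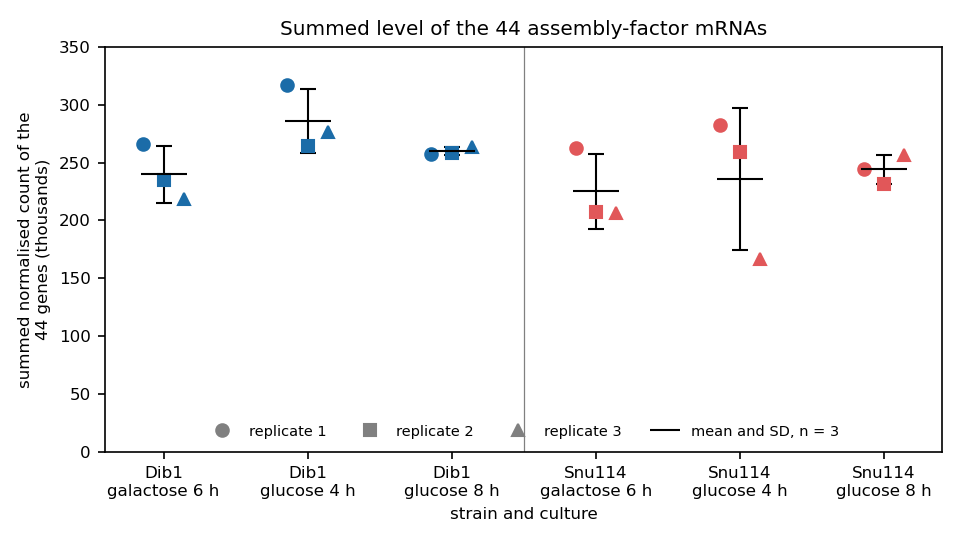
Summed normalised count of the 44 genes (vertical axis, in units of 1000) in each of the 18 libraries by strain and culture (horizontal axis), with symbols for replicates and bars for the mean and SD of 3 libraries. Replicate 3 of the Snu114 4 h group, at 166510, is the lowest of all, and within the Dib1 strain the 4 h libraries (264354 to 317017) lie above the 8 h libraries (257800 to 263764).

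Replicate 1 stood at the other end. It was the highest of 3 libraries for 37 of the 44 genes in Dib1 galactose, 30 in Dib1 4 h, 40 in Snu114 galactose and 40 in Snu114 4 h. The same held for 30.4%, 43.0%, 30.3% and 29.2% of genes with at least 100 reads. At 8 h the highest library was more often replicate 3, for 23 genes in the Dib1 strain and 28 in the Snu114 strain. Of genes with at least 100 reads, 43.2% and 45.4% were highest there. The submitters' library names of replicate 3 have another form than those of replicates 1 and 2 in every group, and what that marks was not tested.

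The genes moved up and down together between libraries of the same group. Pearson's r between the deviations of a pair of genes from their group means had a median of 0.41 in the Dib1 strain and 0.79 in the Snu114 strain, over 946 pairs and 9 libraries that all pairs share. For all pairs of genes with at least 100 reads the medians were 0.00060 and 8.8e-05. Without the 3 Snu114 4 h libraries, the median over the remaining 6 Snu114 libraries was 0.62. In the Dib1 strain it fell to 0.28 without the galactose libraries, with 60.5% of pairs above 0. It was 0.53 without the Dib1 4 h libraries and 0.46 without the 8 h libraries. UTP13, a WD-repeat subunit of UTP-B, followed the mean of the other 43 genes most closely in the Snu114 strain (r of 0.99 over 9 libraries), and NSA2, a large-subunit factor, did so in the Dib1 strain (0.99). These are descriptions of 9 libraries with shared depth, with no test. The 3 deviations of a gene in a group sum to 0, so fewer than 9 free values stand behind each r.

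**Figure D2:**
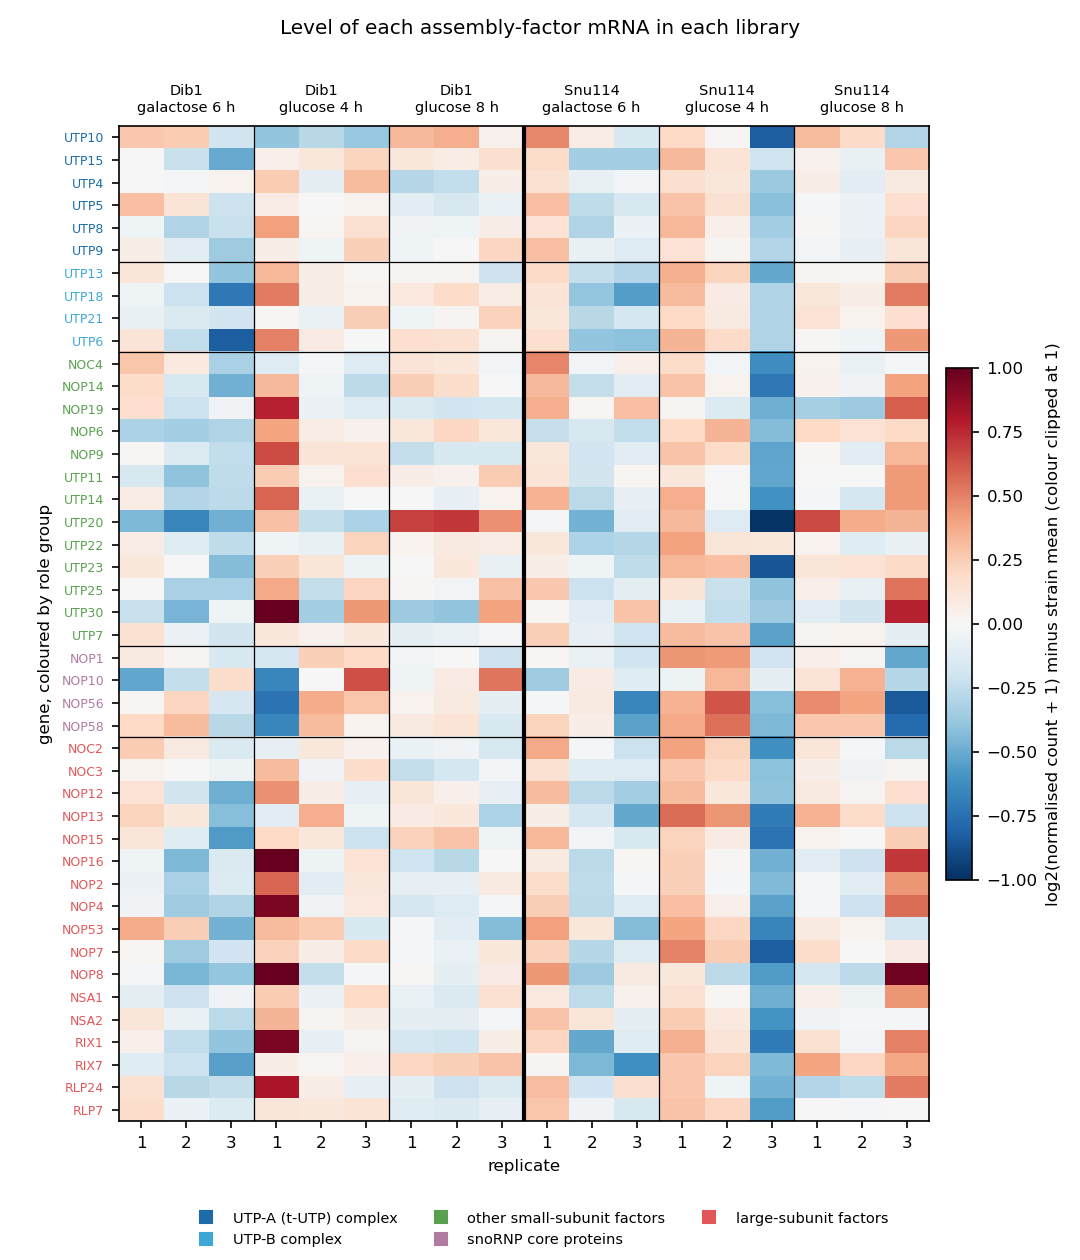
Level of each of the 44 genes (rows, named in the colour of their role group) in each of the 18 libraries (columns, by strain, culture and replicate), as log2(normalised count + 1) minus the mean of the gene in its strain, with colours clipped at 1 either way. In Snu114 4 h replicate 3 all 44 genes are at their lowest of the group, and the 4 snoRNP genes are below their group means in Dib1 4 h replicate 1 and Snu114 8 h replicate 3, as are 8 of the other 40 genes in each.

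The 4 snoRNP core proteins did not follow the rest over the 9 libraries of the Dib1 strain, most of all in 4 h replicate 1. The r of each with the mean of the other 43 genes was negative, at -0.23 for NOP1, -0.32 for NOP58, -0.56 for NOP56 and -0.73 for NOP10, whereas the other 40 genes were all above 0. Between pairs of these 4 genes themselves the median r was 0.71. In 4 h replicate 1 their median deviation from the group mean was -0.60, against 0.18 for the large-subunit factors. In galactose replicates 1 to 3 it was 0.05, 0.12 and -0.17, against 0.20, -0.05 and -0.13. At 8 h it was 0.04, 0.08 and -0.11, against -0.02, -0.03 and 0.06. The r of each gene without 4 h replicate 1 was not tested. NOP56, a core protein of box C/D snoRNPs, had normalised counts of 6042, 13056 and 12199 in the 3 Dib1 4 h libraries, while NOP16 had 20663, 9838 and 11258. Replicate 1 was thus the lowest for the snoRNP gene and the highest for the large-subunit gene; both were singled out after their values were seen. In Snu114 8 h, NOP56 was at 14208, 13463 and 5718 and NOP16 at 8277, 7752 and 14588, so that replicate 3 was the one where they parted. Over the Snu114 strain the r was 0.58, 0.46, 0.32 and -0.17 for NOP1, NOP58, NOP56 and NOP10, so that only NOP10 was below 0, and UTP30, no snoRNP gene, was at 0.32 too. All 4 promoters hold a PAC core, as most of the others do.

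In the Dib1 strain, 4 h in glucose raised 2 of the 44 genes, NOP6 and UTP11, and lowered none (limma on log2(normalised count + 1), Benjamini-Hochberg adjusted p under 0.05). Over all 6447 genes 15.2% were called in this comparison, 5.17% higher and 10% lower. Most of the 44 estimates were above 0 all the same: 38 of 44, with a median log2 change of 0.22 against 0.01 over all genes. Groups did not overlap for 10 genes that were higher and 1 that was lower, against 15.2% and 17.2% of all genes. All 4 UTP-B genes had estimates above 0 (median 0.37), and so had 12 of 13 other small-subunit factors (0.33), 16 of 17 large-subunit factors (0.32), 4 of 6 UTP-A genes (0.19) and 2 of 4 snoRNP genes (0.03). The median of the 44 stayed between 0.18 and 0.33 when any one of the 6 libraries was left out. The replicate numbers pair the libraries here, and with them as a block 6 genes passed: UTP6, UTP8 and UTP18 were also higher and UTP10 was lower. Of all genes 22.9% passed with the block.

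NOP6 (YDL213C, chromosome IV, 77289 to 77966, minus strand), an RNA-binding protein that cells can live without, had normalised counts of 4728, 4654 and 4774 in galactose and 7740.1, 6186 and 6044 after 4 h in glucose. Every glucose library was above every galactose library. The log2 change was 0.49 ± 0.11 (SE; adjusted p = 0.021, limma). The call was lost without any one of the 3 galactose libraries, with adjusted p between 0.054 and 0.082. Leaving any one replicate number out of every group lost it too (adjusted p up to 0.16, limma).

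UTP11 (YKL099C, chromosome XI, 255720 to 256472, minus strand), a processome protein, was at 2786, 2349 and 2599 in galactose and at 3700.0, 3177 and 3482 after 4 h. Again no glucose library reached down to a galactose library. The log2 change was 0.42 ± 0.11 (SE; adjusted p = 0.033, limma), and it was called in 1 of the 6 fits that left out 1 library.

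The gene with the largest fall at 4 h was UTP10 (YJL109C, chromosome X, 212000 to 217309, minus strand), the large HEAT-repeat subunit of UTP-A, which did not pass. It was at 6686, 6581 and 4814 in galactose and 4218, 4559.7 and 4254 at 4 h, a log2 difference of -0.46 ± 0.15 (SE; adjusted p = 0.066, limma). The groups did not overlap, and with the replicate number as a block the adjusted p was 0.024. UTP18, the UTP-B subunit that recruits the exosome helicase Mtr4, was at 3145, 2795 and 1976 in galactose and at 4637, 3401 and 3315 at 4 h. Its groups did not overlap either, with a log2 difference of 0.53 ± 0.18 (SE; adjusted p = 0.083, limma; 0.035 with the block).

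After 8 h in glucose 4 of the 44 genes of the Dib1 strain had risen against galactose and none had fallen: UTP20, RIX7, NOP6 and UTP11. Over all genes 28.9% were called, 13.7% higher and 15.1% lower. The median log2 change of the 44 was 0.13 against 0.01, with 30 of 44 estimates above 0. It was 0.22 (35 above 0) without galactose replicate 1, 0.08 (32) without galactose replicate 2 and 0.09 (24) without galactose replicate 3. With the replicate block NOP15, a factor of the internal transcribed spacer, and UTP18 passed as well, 6 genes in all, where 35.7% of all genes passed. Pairing by number is not clear between replicates 1 and 2 here, as galactose replicate 1 and 8 h replicate 2 also deviated together (r of 0.31). Groups did not overlap for 7 genes that were higher and for none that was lower, against 25.5% and 26.5% of all genes. UTP-B had a median of 0.32, UTP-A 0.16, the other small-subunit factors 0.14, the large-subunit factors 0.09 and the snoRNP genes -0.03. Because both glucose groups are set against the same 3 galactose libraries, the 4 h and 8 h results share their controls. The 95% interval stayed inside a 2-fold change either way for 42 of the 44 genes, all but UTP20 and NOP10.

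UTP20 (YBL004W, chromosome II, 227636 to 235117, plus strand) changed the most. It had normalised counts of 3467, 3007 and 3404 in galactose, 5797, 4019 and 3799.9 after 4 h and 7595, 7756 and 6508 after 8 h. The 3 groups did not overlap. The log2 change at 8 h was 1.14 ± 0.16 (SE; adjusted p = 0.0007, limma), and it was also called in each of the 6 fits that left out 1 library. It was lost when replicate 2 was left out of every group (adjusted p = 0.061).

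RIX7 (YLL034C, chromosome XII, 70633 to 73146, minus strand), the AAA ATPase that takes Nsa1 off the large-subunit precursor, was at 2566, 2411 and 1919.8 in galactose, 2930.4, 2837 and 2901 at 4 h and 3225, 3301 and 3413 at 8 h. These groups, too, were fully apart. The change at 8 h was 0.54 ± 0.12 on the log2 scale (SE; adjusted p = 0.0077, limma), and it was called in each of the 6 fits that left out 1 library but not when replicate 2 was left out of every group (adjusted p = 0.11).

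NOP6 stood at 6363, 6791 and 6341 and UTP11 at 3256, 3206 and 3699 after 8 h, both above all of their galactose libraries. The log2 changes were 0.46 ± 0.11 for NOP6 (SE; adjusted p = 0.014, limma) and 0.39 ± 0.11 for UTP11 (adjusted p = 0.025). NOP6 lost its call without 8 h replicate 2 (adjusted p = 0.064). It also lost it when replicate 2 or replicate 3 was left out of every group (adjusted p up to 0.18, limma). UTP11 was called in 1 of the 6 fits that left out 1 library. NOP10 had the largest difference of the snoRNP genes but did not pass, at 4693, 5698 and 7607 in galactose and 6539, 7134 and 9758 at 8 h, with overlapping groups (0.39 ± 0.31, SE; adjusted p = 0.40, limma).

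**Figure D3:**
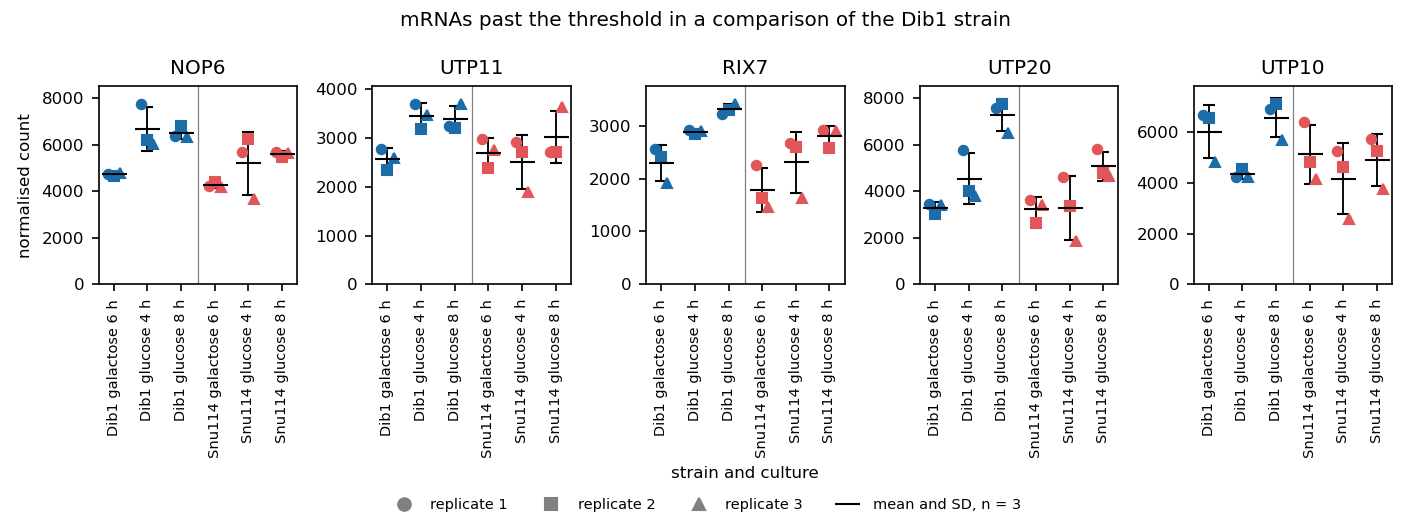
Normalised count (vertical axis from 0, own scale for each gene) of NOP6, UTP11, RIX7, UTP20 and UTP10 in the 18 libraries by strain and culture (horizontal axis), with symbols for replicates and bars for the mean and SD of 3 libraries. UTP20 climbs from 3007 to 3467 in galactose to 6508 to 7756 at 8 h in the Dib1 strain, and Snu114 4 h replicate 3 is the lowest of its group in each panel.

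From 4 h to 8 h in glucose, UTP20 and UTP10 rose in the Dib1 strain and none of the 44 genes fell past the threshold without the replicate block, where 14.4% of all genes were called, 8.62% higher and 5.79% lower. UTP20 rose by 0.70 ± 0.16 on the log2 scale (SE; adjusted p = 0.020, limma). UTP10 went from 4218, 4559.7 and 4254 to 6926, 7119 and 5693, so that all 8 h libraries were above all 4 h libraries, by 0.59 ± 0.15 (SE; adjusted p = 0.027). The rest leaned the other way: 33 of 44 estimates were below 0, with a median of -0.13 against -0.0024 over all genes, and 15 of the 17 large-subunit factors were among them (median -0.22). Without 4 h replicate 1 the median of the 44 was -0.08. Groups did not overlap for 3 genes that were higher and 7 that were lower, against 17.4% and 15.5% of all genes. NOP9, a Pumilio-repeat protein of the processome, had the lowest adjusted p of these (log2 difference of -0.49 ± 0.15, SE; adjusted p = 0.055, limma; 0.017 in the authors' deposited table). Same-numbered libraries deviated together here (r of 0.13 to 0.45), but so did 4 h replicate 2 and 8 h replicate 1 (0.41). Pairing by number is thus not clear in this comparison. With the block NOP9 passed as lower beside both rises, where 21.1% of all genes passed. Both rises were lost without any one of several libraries. UTP20 kept its call in 2 of the 6 such fits and UTP10 in 3, with adjusted p up to 0.094 for UTP20 and 0.12 for UTP10.

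UTP20 and UTP10 are also the only 2 of the 44 genes with a coding length of at least 4 kb, and long genes as a class rose in the Dib1 strain at 8 h. Of 196 genes that long, 133 (67.9%) rose against galactose, with a median log2 change of 0.62, and 105 (53.6%) rose from 4 h to 8 h, with a median of 0.53. In the Snu114 strain 44 of 195 (22.6%) rose at 8 h against galactose. With the trend of log2 level on coding length taken out of each library, UTP20 at 8 h against galactose was at 0.31 (adjusted p = 0.068, limma), and it passed when the replicate block was added (0.037). The changes from 4 h to 8 h were then 0.15 for UTP20 (adjusted p = 0.40) and 0.21 for UTP10 (0.43). NOP6, UTP11 and RIX7 kept their calls at 8 h after the same step (0.56, 0.49 and 0.37). What the length trend itself comes from was not tested.

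**Figure D4:**
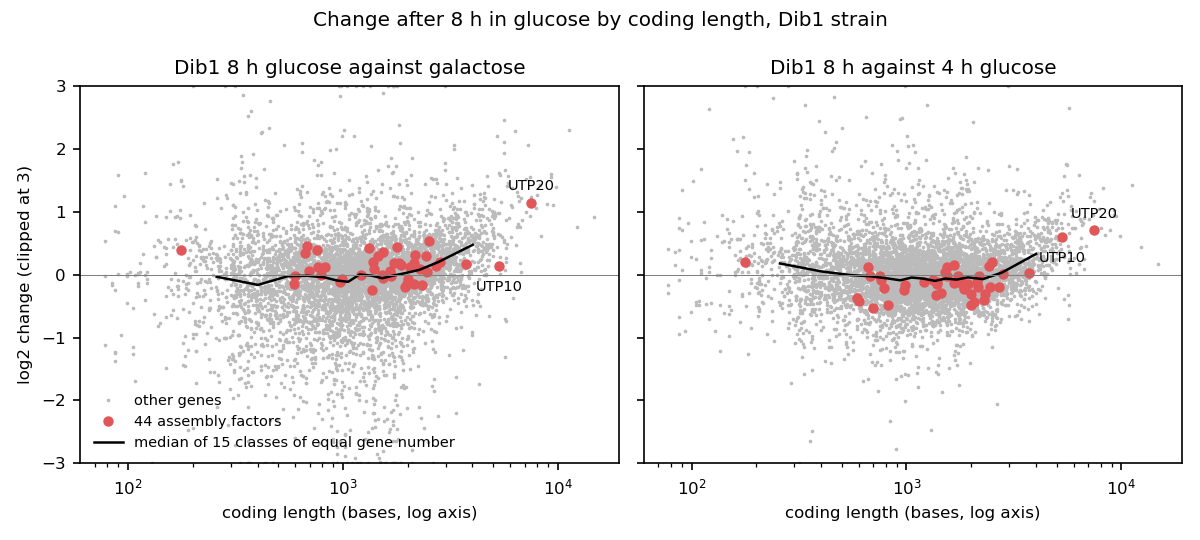
Log2 change in the Dib1 strain after 8 h in glucose (vertical axis, clipped at 3 either way) against coding length in bases (log axis), against galactose (left) and against 4 h (right), for the 44 genes in red and other genes in grey, with the median of 15 classes of equal gene number as a line. The line climbs at the long end, where UTP20 (1.14 and 0.70) lies.

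In the Snu114 strain none of the 44 genes passed at 4 h against galactose, where 11.5% of all genes did, 3.78% higher and 7.68% lower. Neither edgeR nor DESeq2 called any of them, and 1 had an unadjusted p under 0.05, UTP22 of the UTP-C complex. With the replicate number as a block, which pairs the libraries in this comparison, UTP22 passed and was higher at 4 h, where 23.2% of all genes passed. It was at 5737, 4277 and 4353 in galactose and 6995, 5759 and 5715 at 4 h, so that the lowest 4 h library lay just below the highest galactose library and the groups overlapped. The 44 estimates were split evenly around 0, 22 on each side, with a median of -0.0047 against 0 over all genes. Single libraries moved this split either way. Without replicate 3 of the 4 h group the median was 0.26 and 38 of 44 estimates were above 0, and NOP6 passed. Without replicate 1 of the 4 h group the median was -0.17 with 12 of 44 above 0, and without replicate 1 of the galactose group it was 0.13 with 33 of 44. The groups overlapped for all 44 genes, where 15.7% of all genes were higher and 18.2% lower with no overlap.

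After 8 h none of the 44 passed against galactose in the Snu114 strain either, against 8.98% of all genes, 3.27% higher and 5.71% lower. edgeR called 0 and DESeq2 called 1, RIX7, and 3 genes (RIX7, UTP20 and UTP18) had an unadjusted p under 0.05. The estimates were above 0 for 33 of 44, with a median of 0.14 against 0 over all genes. That median also moved with single libraries: it was 0.03 without galactose replicate 2, 0.04 without 8 h replicate 3, 0.22 without 8 h replicate 2 and 0.24 without galactose replicate 1. It was -0.0037 when replicate 3 was left out of every group. Groups did not overlap for 4 genes that were higher and none that was lower, against 13.2% and 14.7% of all genes. RIX7 had 2264, 1631 and 1457 in galactose, 2681, 2603 and 1636 at 4 h and 2921, 2571 and 2910.0 at 8 h. All 8 h libraries were above the galactose libraries, by 0.67 ± 0.21 on the log2 scale (SE; adjusted p = 0.089, limma; 0.041 in the authors' deposited table). UTP20 was at 3643, 2655 and 3407 in galactose, 4601, 3362 and 1867 at 4 h and 5799, 4767 and 4658 at 8 h, again with all 8 h libraries highest (0.66 ± 0.28, SE; adjusted p = 0.20, limma).

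**Figure D5:**
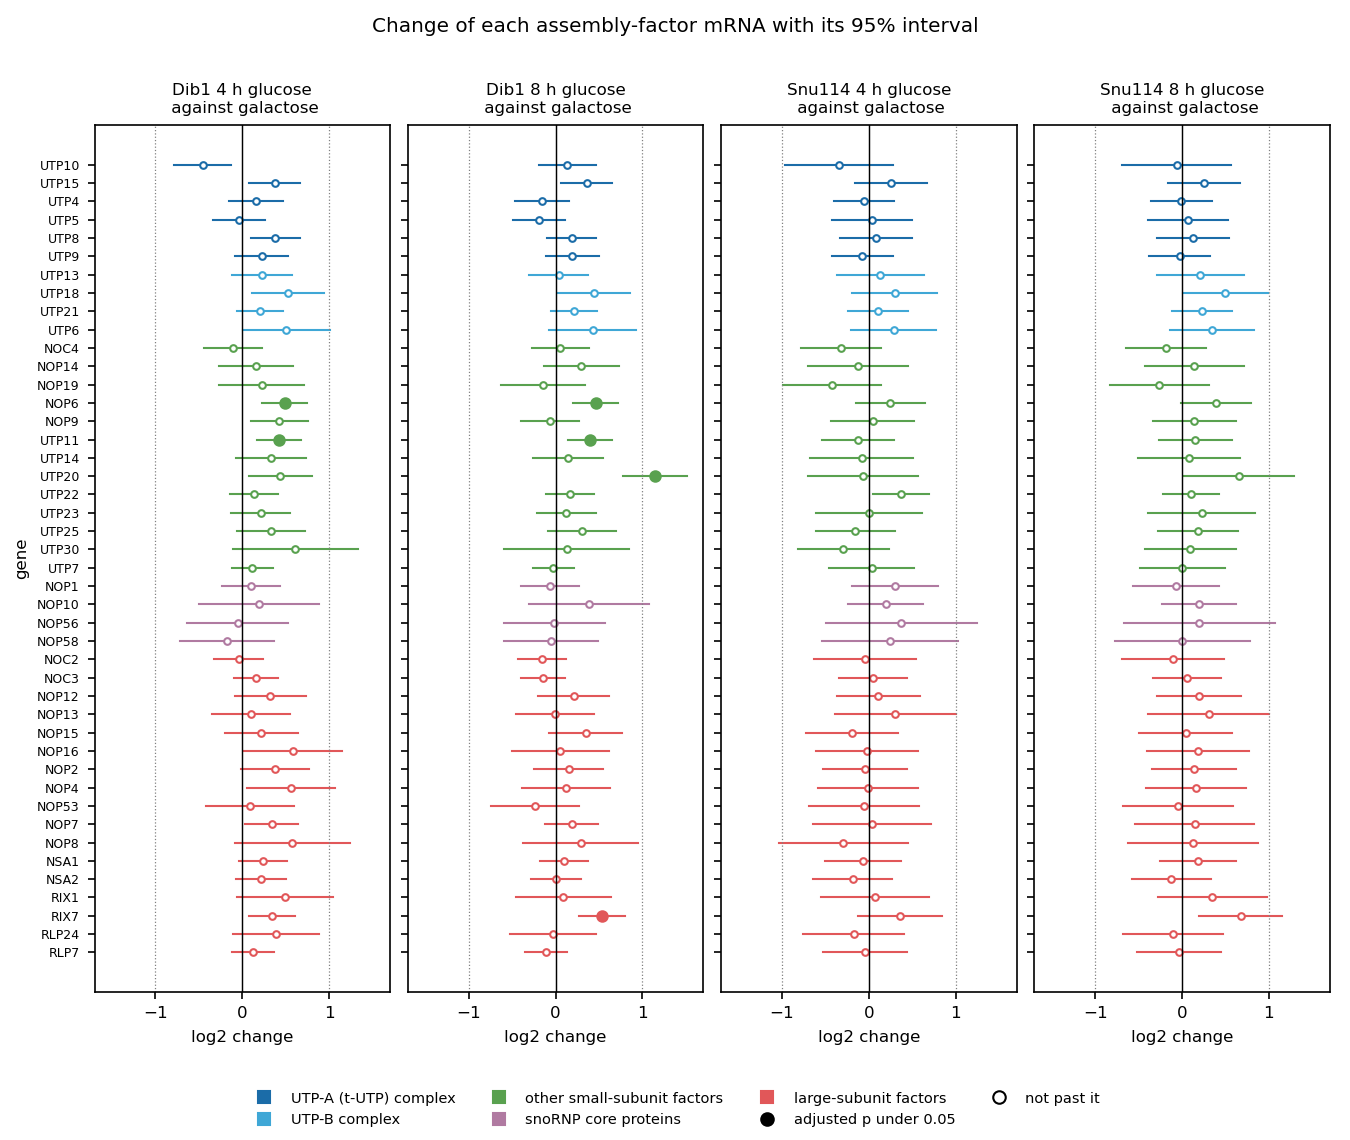
Log2 change (horizontal axis) of each of the 44 genes (rows, coloured by role group) in the 4 comparisons with galactose, with 95% intervals from limma, filled points past an adjusted p of 0.05 and dotted lines at a 2-fold change. Filled points are NOP6 and UTP11 at 4 h and UTP20, RIX7, NOP6 and UTP11 at 8 h, all in the Dib1 strain.

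From 4 h to 8 h no gene of the 44 passed in the Snu114 strain, where 1.91% of all genes did, 1.24% higher and 0.667% lower. Groups did not overlap for 1 gene that was higher and 1 that was lower, against 10.3% and 9.73% of all genes. edgeR and DESeq2 called none, and UTP20 alone had an unadjusted p under 0.05 (log2 difference of 0.72 ± 0.28, SE; adjusted p = 0.27, limma). The median was 0.10, with 37 of 44 estimates above 0, against 0.0036 over all genes. Without replicate 3 of the 4 h group it turned to -0.11, with 10 of 44 above 0. Without 4 h replicate 1 it was 0.24, without 4 h replicate 2 it was 0.19, without 8 h replicate 2 it was 0.16, and without 8 h replicate 3 it was 0.05. Intervals bound what these libraries could show: in each Snu114 comparison the 95% interval lay inside a 2-fold change for 40 of the 44 genes and reached past it for 4.

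The changes of the strains were compared directly in 1 fit of all 18 libraries (6418 genes), and none of the 44 passed in any of the 3 differences. The median of the 44 was -0.22 at 4 h against galactose, with 35 of 44 estimates below 0. It was -0.01 at 8 h against galactose (23 of 44 below 0) and 0.25 for 8 h against 4 h (37 of 44 above 0). Without replicate 3 in every group these medians were -0.0043, -0.06 and -0.04. Without replicate 1 they were -0.27, 0.04 and 0.32, and without replicate 2 -0.44, -0.03 and 0.39. At 4 h against galactose limma, edgeR and DESeq2 called 0, against 0.499% of all genes by limma (0.343% higher, 0.156% lower), and 1 gene (UTP11) had an unadjusted p under 0.05. At 8 h against galactose they called 0 again, against 6.31% (3.18% higher, 3.13% lower), and none had an unadjusted p under 0.05. For 8 h against 4 h the count was 0 as well, against 0.623% (0.171% higher, 0.452% lower), with 1 unadjusted p under 0.05 (NOP9). A call in the Dib1 strain and not in the Snu114 strain is thus not shown to be a difference between them. For UTP20 at 8 h the Snu114 change minus the Dib1 change was -0.49 on the log2 scale, with a 95% interval from -1.23 to 0.25 (adjusted p = 0.50, limma). For NOP6 at 8 h it was -0.07, from -0.52 to 0.39, and for RIX7 0.14, from -0.40 to 0.68. The interval stayed within a 2-fold difference for 26, 36 and 27 of the 44 genes in the 3 differences.

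Other genes of the pathway, 142 of 144 listed genes found in the tables, were read beside the 44. Of them 6 were called at 4 h (5 higher, 1 lower), 17 at 8 h (13 and 4) and 9 from 4 h to 8 h (6 and 3) in Dib1 cells. The counts in Snu114 cells were 3, 4 and 1. Over all genes 15.2%, 28.9% and 14.4% were called in Dib1 cells and 11.5%, 8.98% and 1.91% in Snu114 cells. The 39 other processome factors had medians close to those of the 44 genes, at 0.27 (4 h) and 0.20 (8 h) in Dib1 cells, with 0 and 1 called. The 56 other large-subunit factors had medians of 0.22 and 0.11, with 3 and 7 called. Of these, REH1 rose by 1.06 ± 0.10 on the log2 scale at 8 h (SE; adjusted p = 6.7e-05, limma), and NOG2, a GTPase whose gene holds an intron, changed by -1.12 ± 0.13 (adjusted p = 0.00019). RRN3, the initiation factor of RNA polymerase I, rose in Dib1 cells, by 0.59 ± 0.14 after 4 h and 1.23 ± 0.14 after 8 h (SE; adjusted p = 0.020 and 0.00018, limma).

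The low library was low for these lists too. In replicate 3 of the Snu114 4 h group 37 of 39 other processome factors and 56 of 56 other large-subunit factors were the lowest of 3 libraries. So were 10 of 10 listed RNA polymerase III genes, 12 of 16 RNA polymerase I genes and 8 of 11 other snoRNP proteins. Only 3 of 10 regulators of ribosome synthesis were lowest there. Calls among the 10 regulators went both ways in Dib1 cells. They were 0 higher and 1 lower at 4 h, 3 and 2 at 8 h, and 2 and 1 from 4 h to 8 h. In Snu114 cells they were 0 and 1, 0 and 2, and 0 and 1. Of the regulators, CRF1, a co-repressor of ribosomal protein genes, fell in glucose in both strains. Its log2 change in Dib1 cells was -1.31 ± 0.20 after 4 h and -1.69 ± 0.20 after 8 h (SE; adjusted p = 0.0027 and 0.00027, limma). In Snu114 cells it was -1.64 ± 0.24 and -0.90 ± 0.24 (adjusted p = 0.0024 and 0.047). DOT6, a repressor known to bind the PAC motif, fell from 4 h to 8 h, with log2 changes of -0.96 ± 0.15 in Dib1 cells and -0.61 ± 0.13 in Snu114 cells (SE; adjusted p = 0.0036 and 0.049, limma). The largest called rises of regulators were in Dib1 cells. FHL1 rose by 0.69 ± 0.10 at 8 h against galactose (SE, adjusted p = 0.00064, limma). SFP1 rose by 0.45 ± 0.12 from 4 h to 8 h (SE, adjusted p = 0.031, limma).

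All levels are shares of the polyadenylated RNA of a culture, so a change in the amount of a transcript per cell and a change in the rest of the RNA cannot be told apart.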

How the data were processed

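Stranded libraries of polyadenylated RNA were sequenced, per the labels' protocols. The submitters' processing notes name Trimmomatic, STAR, HTSeq, DESeq2 and the sacCer3 genome, without versions or a strand setting. The authors deposited, per strain, a gene table of normalised signal (read count over a size factor), with log2 fold changes and adjusted p-values of their own. Within a library all values are multiples of what 1 read is worth (100% whole within 0.001), so the reads could be recovered. Introns were not used here, and no member gene is flagged with one. File headers call the means technical repeat averages, and no label states separate cultures, so p-values may measure technical spread. As the strand setting of the counting is not given in the sources used here, reads of overlapping antisense genes may be shared.

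The design assumed counts; as the files held normalised values, limma 3.58.1 (R 4.3.3) was run on log2(value + 1), with 9 libraries per strain and 6447 genes, and 18 libraries and 6418 genes for strain differences. Benjamini-Hochberg adjustment ran over all genes. Alternatives were edgeR 4.0.16 and DESeq2 1.42.0 on the recovered reads, TMM scaling, pseudocounts of 0.5 and 5, a minimum mean of 1 CPM, a replicate block, removal of a length trend and leaving out libraries. Deviations of same-numbered libraries correlated above 0.1 in all 3 pairs for the 3 Dib1 comparisons (0.30 to 0.69, 0.36 to 0.59 and 0.13 to 0.45). The same held for Snu114 4 h against galactose (0.33 to 0.55). There the numbers were taken to pair the libraries. For Dib1 8 h against 4 h this is not clear, since 4 h replicate 2 and 8 h replicate 1 were at 0.41. For Dib1 8 h against galactose it is not clear between replicates 1 and 2. There galactose replicate 1 and 8 h replicate 2 were at 0.31, and galactose replicate 2 and 8 h replicate 1 at 0.26. The members, their 5 role groups and the 6 other lists were chosen with earlier results of these data known. Genes given in full were up to 4 called each way per comparison without overlap, the highest and lowest per kilobase and the largest change of each role group. Of the other lists, up to 1 gene each way was named. Coordinates, coding lengths and promoters come from the R64 assembly, which is sacCer3 (5914 of 6596 identifiers matched, members 44 of 44).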

Additional observations from a re-analysis of the deposited data

Results flagged for a closer look

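The 5 results below are differences between the strains in genes of the other pathway lists, each past the threshold for the difference itself (limma, adjusted p over 6418 genes; Snu114 change minus Dib1 change, log2 scale ± SE). No explanation was tested.

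EBP2, a large-subunit assembly factor whose gene YKL172W lies next to the driven SNU114 gene YKL173W, rose in the Snu114 strain, by 1.71 ± 0.20 at 4 h and 1.88 ± 0.20 at 8 h. The difference was 1.44 ± 0.25 at 4 h (adjusted p = 0.015) and 1.75 ± 0.25 at 8 h (adjusted p = 0.00099). Its normalised counts there were 4129, 3138 and 3609 in galactose, 14632, 12384 and 9012 at 4 h and 12377, 11754 and 16140.3 at 8 h, so the galactose libraries stood apart from all others. In the Dib1 strain it was between 11153 and 17195 in all 9 libraries.

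REH1, a late large-subunit factor, rose less in the Snu114 strain at 8 h, with a difference of -0.71 ± 0.12 (adjusted p = 0.0025). RRN3 did so by -0.87 ± 0.20 (adjusted p = 0.017). SFP1, an activator of ribosome synthesis genes, had a difference of -0.74 ± 0.18 (adjusted p = 0.025). Over 12 alternatives the estimates ran from 1.30 to 1.64 and 1.65 to 1.79 for EBP2, -0.76 to -0.65 for REH1, -0.90 to -0.82 for RRN3 and -0.78 to -0.69 for SFP1. The highest adjusted p over these was 0.63 and 0.13 for EBP2, 0.35 for REH1, 0.39 for RRN3 and 0.40 for SFP1.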

How the results depend on the processing

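None of the 12 log2 changes of members given in full turned in sign under any of 228 alternatives; 171 kept their side of the threshold, 42 lost a call and 15 gained one. The count of members called in the Dib1 strain at 4 h, 2, was 6 in the authors' deposited table, 8 with DESeq2, 6 with the replicate block and 6 with the length trend removed and the block. Calls over all 6447 genes rose as well. They went from 333 higher and 646 lower to 652 and 817 in the deposited table and 667 and 822 with DESeq2. With the block they were 606 and 873, and with the length trend also removed 618 and 821 of 5843 genes. At 8 h, 4 became 9 with the length trend removed and the block (6 with the block alone). Calls over all genes there went from 884 higher and 976 lower to 1050 and 1173 of 5843 genes. For 8 h against 4 h, the 2 rises (UTP20, UTP10) were both lost with the length trend removed, leaving 1 call, NOP9 lower. Of all genes 484 were then higher and 400 lower. Adding the block left 2 members, NOP9 and UTP4 lower, beside 755 and 653 of all genes. In the Snu114 strain 0 at 4 h became 1 with the block and 2 with the length trend removed and the block. Calls over all genes went from 244 higher and 495 lower to 677 and 820, and to 676 and 790. There, 0 at 8 h became 1 in the authors' deposited table, 1 with DESeq2, 1 with the block and 2 with the length trend removed and the block. Over all genes 211 higher and 368 lower became, in that order, 418 and 553, 432 and 559, 491 and 621, and 445 and 580. Leaving out replicates gave 0 to 5, 0 to 5 and 0 to 4 in the Dib1 strain and 0 to 5, 0 to 1 and 0 in the Snu114 strain (4 h and 8 h against galactose, then 8 h against 4 h). Over all genes in the Dib1 strain, 24 to 627, 210 to 741 and 9 to 714 were then higher. Those lower were 152 to 746, 242 to 804 and 0 to 606. In the Snu114 strain 14 to 693, 15 to 472 and 0 to 135 were higher, and 40 to 804, 35 to 525 and 0 to 106 lower. Leaving out 1 replicate number in every group was chosen after seeing the data for comparisons within a strain. The strain differences stayed at 0 under the alternatives run, the replicate block among them. For Snu114 8 h against galactose and against 4 h, and across the strains, same-numbered libraries share only a number (lowest r of -0.17, -0.08 and -0.65). The block moved no other count of members called by over 1.5 times, and a count of 0 gives no ratio. Calls over all genes did move. For Snu114 8 h against 4 h they went from 80 higher and 43 lower to 205 and 180. For the strain difference at 4 h against galactose they went from 22 and 10 to 78 and 47. At 868 or more reads per gene and library, spread between libraries rather than counting limits the precision; its source was not tested.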
